A study of Mus musculus with 12 samples.

Results

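Cathepsins are the proteases of the lysosome, and 10 of their genes are described here in the aorta: Ctsz, Ctsb, Ctsd, Ctsk, Ctss, Ctsl, Ctsh, Ctsc, Ctsa and Ctsf. They are 10 of the 25284 genes in the deposited table of counts. The genes were chosen by symbol, after Ctsz had been seen to be lower in the mice given AZ6983. The difference of Ctsz between the groups is therefore the measurement on which the set was selected, and is given as a description. A DESeq2 call of Ctsz, reported near the end, repeats the selecting values and is not counted as a test. All 10 passed edgeR's filter on low counts.

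The libraries came from the thoracic aorta of 12 male ApoE-/- mice on a C57BL/6 background, which lack apolipoprotein E in every cell and were all fed a high fat diet with cholesterol. From 10 to 18 weeks of age an osmotic minipump delivered either AZ6983, an agonist of the α7 nicotinic acetylcholine receptor (α7nAChR), at 50 µmol per kg per day, or the vehicle, cyclodextrin in saline. There were 6 control mice (C1 to C6) and 6 AZ6983 mice (A1 to A6), and each mouse gave 1 library of stranded total RNA after removal of ribosomal RNA. The whole vessel was used. Plaque was not measured in these files, and the smooth muscle, macrophage and brown fat marker genes were each read in every mouse, so the RNA came from more than 1 cell type.

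Cathepsins are made as inactive proenzymes, tagged with mannose 6-phosphate, carried to the lysosome and activated by its acid. Most are cysteine proteases, whereas cathepsin D is an aspartic protease and cathepsin A a serine carboxypeptidase. In atherosclerotic vessels macrophages and smooth muscle cells can also release them, and cathepsins K, S and L then cut elastin and collagen. Many lysosomal genes carry the letters CACGTG near their start, the core of the site bound by TFEB, TFE3 and MITF, the transcription factors that govern lysosome formation.

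The promoters of 4 members are shown: Ctsz, the gene the set was chosen by, Ctsd and Ctsa, the members with these letters at 2 places, and Ctss, the member that varied most between mice, which holds another motif. Sequences are RefSeq windows of 300 bases on GRCm38.p6, from 250 before to 50 after a gene's start, read 5′ to 3′ on the strand of the gene. Capitals mark CACGTG, which reads alike on both strands, and GAGGAAGT or its reverse complement ACTTCCTC, a core of the kind bound by the myeloid factor PU.1. The windows lie at chr2:174438990-174439289 on the minus strand (Ctsz), chr7:142387778-142388077 on the minus strand (Ctsd), chr2:164833523-164833822 on the plus strand (the second of 2 starts of Ctsa) and chr3:95526536-95526835 on the plus strand (Ctss).
Ctsz: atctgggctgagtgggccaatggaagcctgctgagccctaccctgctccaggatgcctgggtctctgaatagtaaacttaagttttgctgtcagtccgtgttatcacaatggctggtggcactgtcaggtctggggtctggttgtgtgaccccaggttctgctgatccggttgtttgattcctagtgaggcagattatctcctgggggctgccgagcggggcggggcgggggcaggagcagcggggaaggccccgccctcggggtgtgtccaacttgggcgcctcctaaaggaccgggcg
Ctsd: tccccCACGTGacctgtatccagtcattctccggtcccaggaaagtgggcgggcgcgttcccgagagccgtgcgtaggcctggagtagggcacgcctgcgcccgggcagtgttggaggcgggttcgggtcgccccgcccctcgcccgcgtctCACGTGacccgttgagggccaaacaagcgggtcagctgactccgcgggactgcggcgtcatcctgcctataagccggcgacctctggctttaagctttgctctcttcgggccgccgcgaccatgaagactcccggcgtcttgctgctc
Ctsa: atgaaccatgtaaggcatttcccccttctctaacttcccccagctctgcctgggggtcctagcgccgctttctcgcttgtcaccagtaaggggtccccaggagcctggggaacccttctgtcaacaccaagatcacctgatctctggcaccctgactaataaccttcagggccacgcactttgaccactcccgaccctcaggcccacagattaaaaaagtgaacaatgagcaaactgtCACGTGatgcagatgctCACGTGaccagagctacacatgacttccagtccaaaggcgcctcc
Ctss: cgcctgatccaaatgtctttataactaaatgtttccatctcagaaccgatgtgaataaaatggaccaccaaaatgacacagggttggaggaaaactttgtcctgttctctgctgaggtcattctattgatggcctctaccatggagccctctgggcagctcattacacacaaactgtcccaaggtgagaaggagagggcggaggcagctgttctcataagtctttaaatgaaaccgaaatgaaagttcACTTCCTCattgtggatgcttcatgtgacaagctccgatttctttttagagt

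Windows were found for 8 of the 10 members. CACGTG was present in 4 of these 8 genes (Ctsd, Ctsl, Ctsa and Ctsf), where 7.15% of 32851 promoter windows held it. Ctsd and the second start of Ctsa each held it at 2 places, and 0.594% of all windows held it at 2 or more. It was not in the windows of Ctsz, Ctsk, Ctss or Ctsc. GAGGAAGT was in the windows of 2 members, Ctss and Ctsc, against 3.20% of all windows, and did not overlap CACGTG. These matches describe letters only, and no binding was measured.

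Each mouse had 23810036 to 35864666 counts on genes, and the 10 cathepsins took 0.309% to 0.395% of them in controls and 0.232% to 0.363% in AZ6983 mice. Apoe, the disrupted gene, still had 117 to 311 counts per mouse. Reads outside any gene, called the unassigned share here, were 12.8% ± 1.36 of the table (SD, n = 6) with AZ6983 and 10.1% ± 1.55 (SD, n = 6) with vehicle, which differed (two-sided exact permutation test, p = 0.0108). The library numbers at the end of the column names, whose meaning is not given, were 3, 4, 5, 6, 7 and 12 for controls and 1, 2, 8, 9, 10 and 11 for AZ6983 mice, so AZ6983 libraries lay on both sides of a run of controls, and the part of this order in the levels was not tested. Values below are CPM, counts brought to 1 library size after TMM scaling, and log2 fold changes are of AZ6983 over control.

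Ctsz encodes cathepsin Z, also called cathepsin X, a carboxypeptidase that removes single residues from the end of a chain. The gene lies at chr2:174427493-174439039 on the minus strand of GRCm38. Control mice C1 to C6 had 243, 212, 248, 281, 224 and 198 CPM, and AZ6983 mice A1 to A6 had 194, 164, 171, 139, 213 and 138 CPM, from 3714 to 7546 counts per mouse. Of the AZ6983 mice, 5 were below every control, and A5 was above the controls C2 and C6, so the groups overlapped. The means were 234 ± 29.7 CPM (SD, n = 6) and 170 ± 29.7 CPM (SD, n = 6), a log2 fold change of −0.46 ± 0.118 (SE), or 0.725 times the control level. This difference is the one the set was chosen by.

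That size depended on which measurements stood in the model. With the unassigned share as a covariate, the log2 fold change of Ctsz was −0.27. With 1 mouse left out at a time it lay between −0.56, without A5, and −0.41. In bulk RNA, fewer cells of a type and less RNA per cell cannot be told apart, for Ctsz and for every gene that follows.

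The most abundant members were Ctsd, an aspartic endopeptidase, and Ctsb, a cysteine protease that acts as an endopeptidase and as a dipeptidyl carboxypeptidase. Ctsd had 1058 to 1244 CPM in controls (median 1189.8) and 808 to 1169 CPM in AZ6983 mice (median 1018). Ctsb had 947 to 1173 CPM in controls (median 1104) and 785 to 1118 CPM in AZ6983 mice (median 974). Both overlapped between the groups, with 4 AZ6983 mice below every control for Ctsd and 3 for Ctsb. Their log2 fold changes were −0.21 ± 0.103 (SE) and −0.18 ± 0.103 (SE), and neither passed 10% FDR when tested by quasi-likelihood in edgeR (adjusted p = 0.505 and 0.541). In GENCODE M21 the span of Ctsb shares 774 bases with that of Fdft1 on the other strand. The span of Ctsd shares 6757 bases with Gm49369, a gene annotated as protein-coding on the same strand, which has no row in the deposited table of counts. Whether the annotation used for the counting held Gm49369 is not given. If it did, reads of Ctsd could have been set aside as belonging to more than 1 gene, so the counts of Ctsd are uncertain there. The setting for strand in the counting is not given.

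Cathepsins K, S and L degrade matrix. Ctss encodes an elastase that stays active near neutral pH and cuts the invariant chain during antigen presentation. Its level ranged from 90.1 to 221 CPM in controls (median 146) and from 46.9 to 217 CPM in AZ6983 mice (median 93.8). Mouse A2 stood among the highest controls, while A4, A5 and A6 lay below every control. The log2 fold change of −0.58 had the largest size and the largest standard error of the 10 (0.323, edgeR adjusted p = 0.539), and without A2 it was −0.93.

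Ctsk encodes the collagenase of osteoclasts, which is also made in atherosclerotic vessels. It had 23.9 to 39.3 CPM in controls (median 33.7) and 18.1 to 41.0 CPM in AZ6983 mice (median 26.9). Both extremes of the 12 mice were AZ6983 mice, A1 as the highest and A5 as the lowest, and the log2 fold change was −0.22 ± 0.191 (SE, edgeR adjusted p = 0.669). Ctsk and Ctss lie close together on the plus strand of chromosome 3, at chr3:95499256-95509362 and chr3:95526786-95556403. Ctsl, a general endopeptidase, had 335 to 491 CPM in controls (median 412) and 241 to 464 CPM in AZ6983 mice (median 395), with A5 and A6 below every control. Its log2 fold change was −0.14 ± 0.158 (SE, edgeR adjusted p = 0.756). These sizes rested on single mice, since that of Ctsk was −0.36 without A1 and −0.14 without A5, and that of Ctsl was −0.22 without A2 or A1, −0.06 without A5, −0.07 without A6 and −0.08 without C6.

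The remaining members are mostly exopeptidases. Ctsh, an aminopeptidase, had 126 to 152 CPM in controls (median 143) and 85.1 to 162 CPM in AZ6983 mice (median 139). Of the 6 AZ6983 mice, 3 lay above every control and 3 below every control, so a small mean difference (log2 fold change −0.08 ± 0.139 SE, edgeR adjusted p = 0.848) stood beside a wide spread. Ctsc, the dipeptidyl peptidase that activates the serine proteases of neutrophil and mast cell granules, had 110.5 to 126 CPM in controls (median 118) and 81.5 to 119 CPM in AZ6983 mice (median 114). Its log2 fold change was −0.14 ± 0.087 (SE, edgeR adjusted p = 0.578), and A5 and A6 were its lowest mice. Without A5 it was −0.09. The size for Ctsh lay between −0.15, without A1, A2 or A3, and −0.004, without A5, and was −0.03 without A6.

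Ctsa, the serine carboxypeptidase that also protects neuraminidase and β-galactosidase in a complex, had 115 to 139 CPM in controls (median 119.6) and 94.1 to 138 CPM in AZ6983 mice (median 120.2). The medians were nearly equal, and the log2 fold change was −0.07 ± 0.092 (SE, edgeR adjusted p = 0.779). Ctsa shares 1515 bases with Pltp, a gene on the other strand with 1698 to 3207 counts per mouse. Ctsf, a cysteine endopeptidase with a cystatin-like stretch in its propeptide, had 44.1 to 56.9 CPM in controls (median 50.1) and 43.6 to 56.7 CPM in AZ6983 mice (median 47.6). Its groups spanned almost the same range, and differed by −0.06 ± 0.0821 on the log2 scale (SE, edgeR adjusted p = 0.823). With 1 mouse left out, the differences of Ctsa and Ctsf lay between −0.13 (without A1) and −0.04 (without A5) and between −0.11 (without C2) and −0.02 (without C4). Leaving out A2, A6, C4 or C6 also moved the value of Ctsa by over 1.5 times, as did A1, A3, A4, A5, A6, C1 or C5 that of Ctsf.

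**Figure D1:**
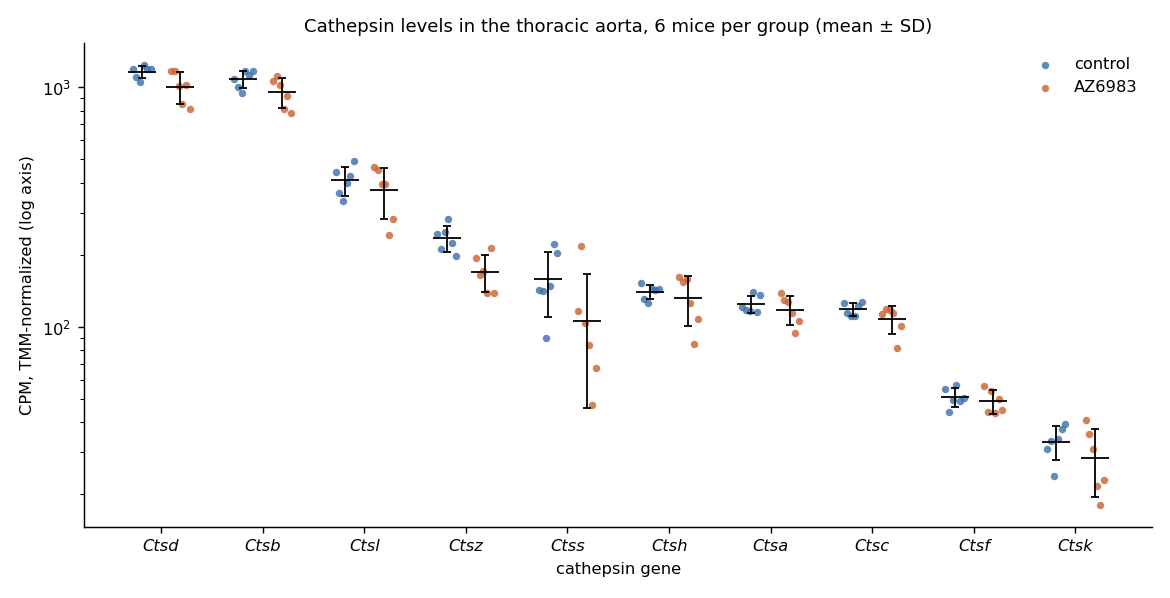
CPM of each cathepsin on a log axis, with 1 point per mouse (control in blue, AZ6983 in orange) and the mean ± SD of each group of 6 as a bar. The AZ6983 points of Ctss run from 46.9 to 217 CPM, and those of Ctsz sit mostly below the controls.

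No test between the groups is counted for Ctsz, since it would repeat the values the set was chosen by. Of the other 9 cathepsins, 0 passed 10% FDR in edgeR, as did 0.0% of the 15857 genes tested, and 0 passed in DESeq2, the tool the study used, against 0.523% of the genes that tool tested. At an unadjusted p below 0.05 in edgeR 0 of these 9 were lower or higher, where 2.81% of all genes were lower and 7.38% higher at that level. None of the 10 had groups that did not overlap, and 0.41% of all genes did.

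The log2 fold change was below 0 for 10 of 10 members, against 47.6% of all genes, with a median of −0.16 over the members and 0.01 over all genes tested. Of the 3 other cathepsins tested, 0 were below 0 (median 0.51), so the direction is that of the members chosen and not of every cathepsin. The members are not independent, since most of them varied together over mice, and Ctsz was chosen for its direction. The count was 10 of 10 under each of the 4 other scalings of library totals and with any 1 mouse left out in edgeR. It was 9 without A4 and A5, 8 with the unassigned share in the model and 7 with the macrophage score, in which Ctsl, Ctsh and Ctsa came to 0.013, 0.038 and 0.0027. In that last model Ctss was at −0.27, Ctsk at −0.02, Ctsb at −0.10, Ctsd at −0.15, Ctsc at −0.06 and Ctsf at −0.05. Ctsz was at −0.51 there, and the median over the members was −0.055.

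**Figure D2:**
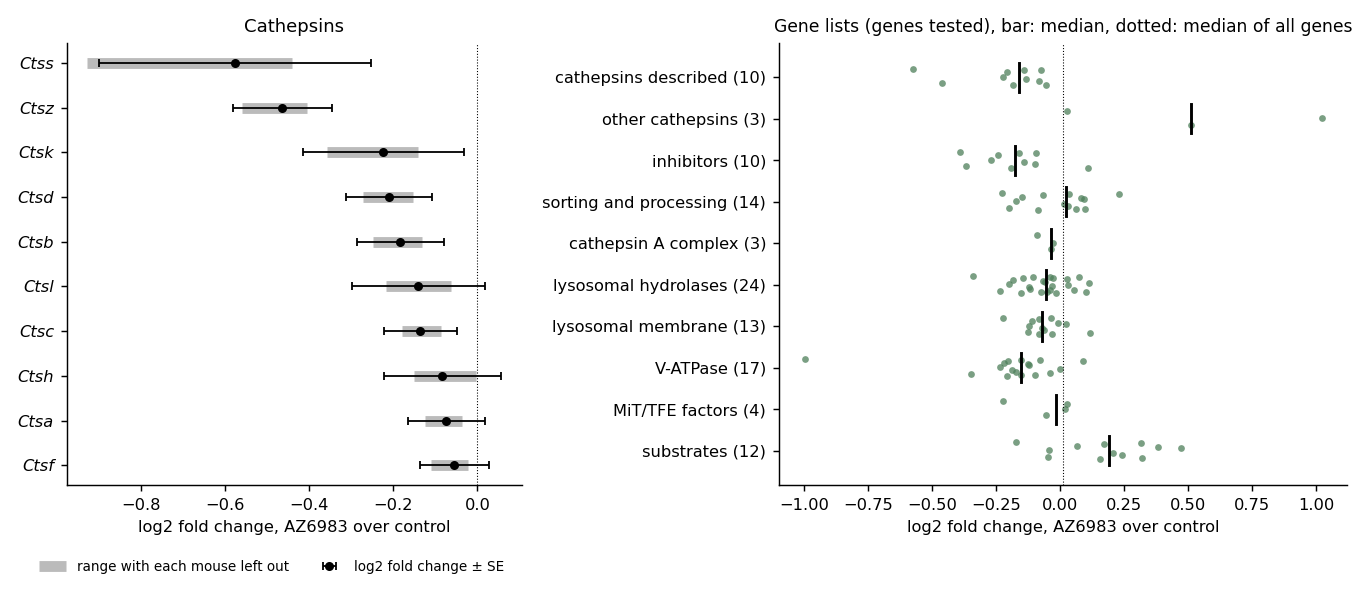
Left, log2 fold change of each cathepsin (AZ6983 over control, point) with its standard error (line) and the range when each mouse was left out (grey). Right, log2 fold changes of the genes tested in each list, with the median as a bar and the median of all genes tested (0.01) as a dotted line. On the left all 10 cathepsins described lie below 0, from −0.58 for Ctss to −0.06 for Ctsf. On the right 0 of the 3 other cathepsins tested do.

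The spread between mice was wider in the AZ6983 group for every cathepsin. The coefficient of variation of CPM ranged from 5.93% to 30.1% over the members in controls, lowest for Ctsd and highest for Ctss, and from 11.3% to 56.5% in AZ6983 mice, lowest for Ctsf and again highest for Ctss. It was larger in AZ6983 for 10 of 10 members, against 64.0% of all genes tested. With each mouse left out in turn the count remained 10 of 10, and the share over all genes was 51.5% to 69.7%, lowest without A5. For Ctsh it was 7.01% in controls and 23.6% in AZ6983 mice, and for Ctsf 8.93% and 11.3%. The 10 members are not independent, since most of them varied together over the same mice. No difference in spread was tested.

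A small number of AZ6983 mice held the low end. A5 was the lowest of 12 mice for 6 members, A6 for 3 and A4 for 1. These 3 mice were among the lowest 3 for 7, 9 and 8 members. No control was the lowest mouse of any member, and the highest mouse was a control for 8 of 10. Ctsz and Ctsf departed from this order. A5, the lowest mouse for Ctsk, Ctss, Ctsl, Ctsh, Ctsc and Ctsa, had the highest Ctsz of the AZ6983 group. For Ctsf, A5 stood above 6 of the 12 mice. Because most members varied together over mice, these counts are not independent of each other. The same counts over all genes are not given here, so they are not shown to be particular to cathepsins.

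**Figure D3:**
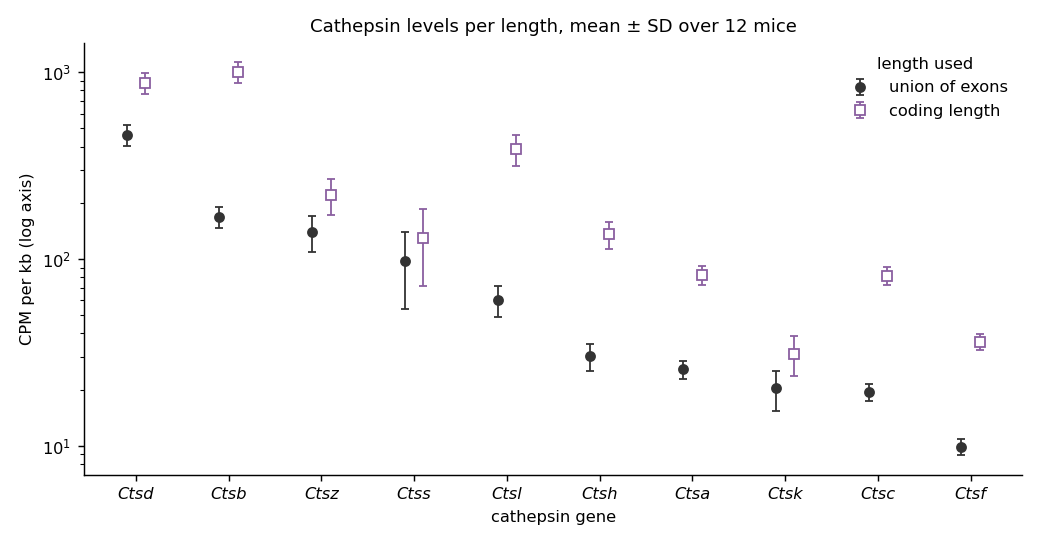
CPM per kb of each cathepsin on a log axis, as mean ± SD over 12 mice, using the union of annotated exons (circles) or the coding length (squares). Ctsd and Ctsb lead on both scales, and the order of the others depends on the length used.

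Levels were compared between genes as CPM per kb of the union of exons in GENCODE M21. The order was Ctsd at 461 ± 59.4 CPM per kb (SD, n = 12), Ctsb at 168 ± 21.5, Ctsz at 140.2 ± 30.5, Ctss at 97.1 ± 42.9, Ctsl at 60.2 ± 11.5, Ctsh at 30.2 ± 4.97, Ctsa at 25.7 ± 2.86, Ctsk at 20.3 ± 4.95, Ctsc at 19.4 ± 2.10 and Ctsf at 9.90 ± 0.978. Of the 9 neighbouring pairs, 8 differed over the mice in an exact sign-flip permutation test (two-sided, adjusted p 0.00146 to 0.00824). Ctsk and Ctsc did not differ beyond their spread (exact permutation test, mean log2 difference 0.03, SD 0.278, higher for Ctsk in 7 of 12 mice, adjusted p = 0.719). By coding length the order began Ctsb, Ctsd, Ctsl, Ctsz, and only Ctsa kept its place. Ctsl and Ctsb have 6489 and 6051 bases in the union of exons, against 1002 and 1017 coding bases.

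A macrophage score was formed as the mean log2 CPM of 18 marker genes, among them Cd68, Adgre1, Csf1r and Lyz2. All 18 had counts in every mouse, with a summed level of 1269 to 2153 CPM in controls and 980 to 2193 CPM in AZ6983 mice. The score was 5.63 ± 0.249 in controls and 5.39 ± 0.443 in AZ6983 mice (SD, n = 6 each), a difference smaller than the scatter of the mice (two-sided exact permutation test, p = 0.299, adjusted over 14 marker lists 0.578). A5 had the lowest score and A2 the highest.

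Over the 12 mice, 7 of the 10 cathepsins rose with this score. The 10 cathepsins were each related to 14 marker lists, 140 relations in all, and p-values came from permutation tests with 100000 draws, adjusted over the 140. For Ctss, Pearson's r was 0.97 (permutation p = 1e-05, the smallest the draws can give, adjusted p = 0.0014) and Spearman's rho 0.91 (permutation p = 0.0001, adjusted p = 0.0126). For Ctsk, r was 0.91 (adjusted permutation p = 0.0073) and rho 0.78 (adjusted permutation p = 0.0616). The other 5 were Ctsl, Ctsc, Ctsh, Ctsa and Ctsb, with r of 0.87, 0.84, 0.84, 0.77 and 0.76 (adjusted permutation p 0.0073 to 0.0331) and rho of 0.76, 0.67, 0.64, 0.69 and 0.85 (adjusted permutation p 0.0345 to 0.161).

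Without A5 and A2, the mice farthest from the median score, r was 0.94 for Ctss, 0.89 for Ctsk and 0.58 to 0.88 for the other 5. Within the 6 controls it was 0.98 for Ctss, 0.99 for Ctsk and 0.38 to 0.83 for the other 5, and within the 6 AZ6983 mice 0.98, 0.87 and 0.70 to 0.89. After centring on the group means, Ctss, Ctsk, Ctsl and Ctsc passed (r 0.82 to 0.98). By rank, Ctss and Ctsb passed. Ctsd had r of 0.63 (adjusted permutation p = 0.117).

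Ctsz and Ctsf did not follow the score. For Ctsz, r was 0.09 (permutation p = 0.780, adjusted 0.840) and rho 0.03 (permutation p = 0.921), and r was −0.52 within controls and −0.19 within AZ6983 mice. For Ctsf, r was 0.07 (permutation p = 0.827, adjusted 0.877) and rho 0.10 (permutation p = 0.765), and r was close to 0 in both groups. Without A5 and A2, r was 0.43 for Ctsz and 0.40 for Ctsf. In A5, the mouse with the lowest macrophage score, Ctsz was at 213 CPM, and in A2, which had the highest, it was at 164 CPM.

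**Figure D4:**
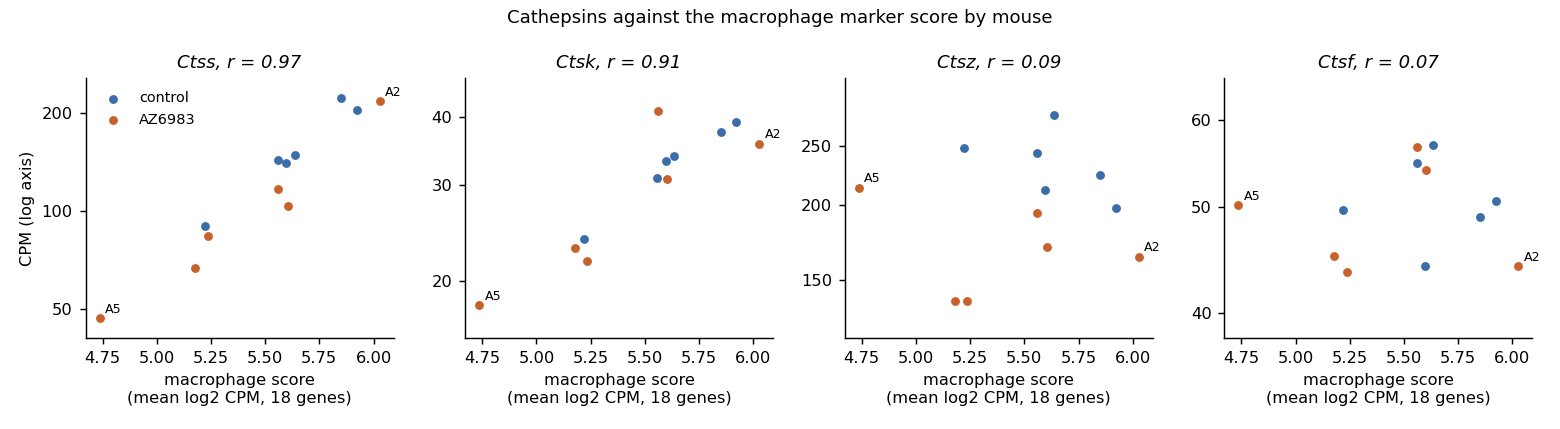
CPM (log axis) of Ctss, Ctsk, Ctsz and Ctsf against the macrophage score, the mean log2 CPM of 18 marker genes, with 1 point per mouse (control in blue, AZ6983 in orange). Ctss and Ctsk rise with the score (r 0.97 and 0.91), while Ctsz and Ctsf do not (r 0.09 and 0.07).

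The difference between members was tested directly with slopes, in log2 CPM per unit of score, on values centred on the group means. This test was chosen after the values were seen. The slope was 1.71 ± 0.111 (SE, n = 12) for Ctss, 0.92 ± 0.153 for Ctsk, 0.72 ± 0.148 for Ctsl, 0.63 ± 0.141 for Ctsh and 0.26 to 0.37 for Ctsc, Ctsa, Ctsb and Ctsd. It was −0.17 ± 0.195 for Ctsz and −0.001 ± 0.136 for Ctsf.

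Against the mean slope of the other 9 members, Ctss was steeper by 1.33 ± 0.147 (SE, n = 12; permutation test within groups, adjusted over 10 members p = 0.0006). Ctsk was steeper by 0.45 ± 0.125 (permutation test, adjusted p = 0.0231). The differences for Ctsz and Ctsf were −0.76 ± 0.155 and −0.57 ± 0.0845 (permutation test, adjusted p = 0.00267 for each). With each mouse left out, the difference stayed past 0.05 for Ctss, Ctsz and Ctsf (permutation test, highest adjusted p 0.0055, 0.0118 and 0.0117). For Ctsk it did not pass without C3 (permutation test, adjusted p = 0.115, difference 0.41) or without A5 (permutation test, adjusted p = 0.0695, difference 0.44).

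The 10 genes were also set against each other. On centred values over 12 mice, r between pairs of the other 8 members, leaving out Ctsz and Ctsf, had a median of 0.76 over 28 pairs (0.21 to 0.95). Ctsz had a median r of −0.07 with these 8 (−0.49 with Ctsc to 0.58 with Ctsd), and Ctsf had 0.31 (−0.05 to 0.53). The ranges overlapped, since Ctsz with Ctsd (0.58) and Ctsf with Ctsd (0.53) were above Ctsd with Ctsc (0.21) and Ctsb with Ctsc (0.39). Ctsz and Ctsf had r of 0.69 with each other, and the closest pair of all was Ctsb and Ctsd, at 0.95. These are descriptions over 12 libraries that share their normalization. Ctsz and Ctsf were set apart after their values were seen, so the contrast of medians is partly built in.

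**Figure D5:**
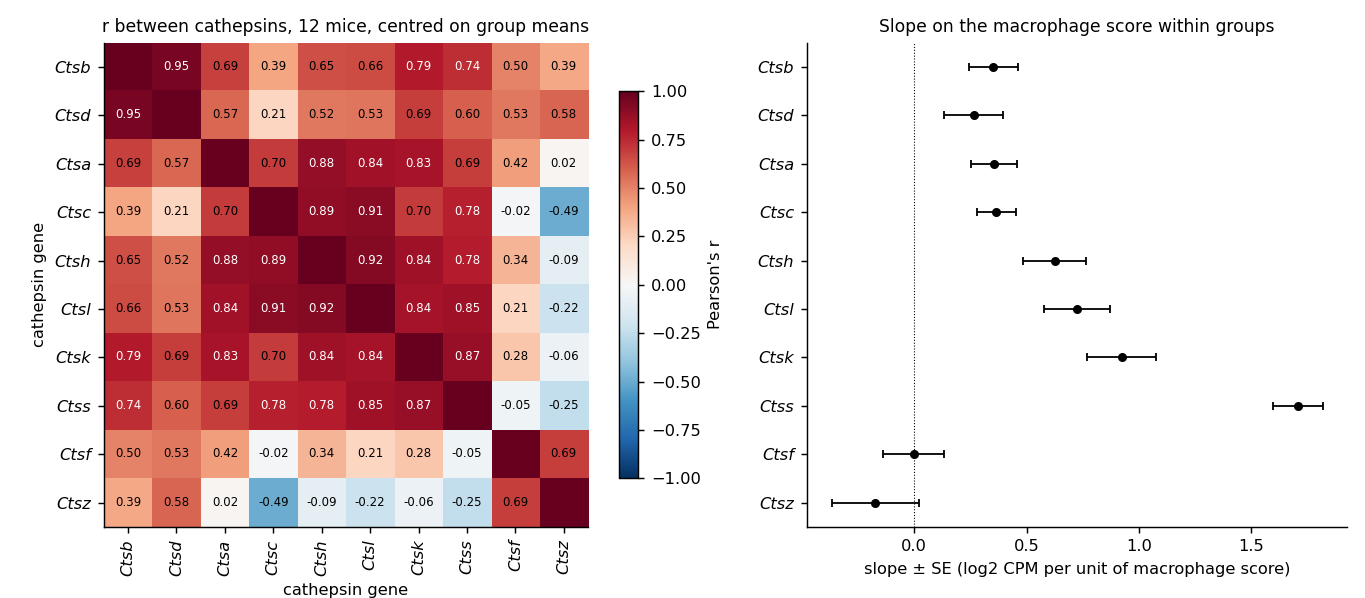
Left, Pearson's r between each pair of cathepsins over 12 mice on log2 CPM centred on the group means. Right, slope of each cathepsin on the macrophage score (log2 CPM per unit of score) with its standard error. The 8 genes other than Ctsf and Ctsz are positively correlated throughout. Ctsf and Ctsz, set apart after their values were seen, have r with Ctsd of 0.53 and 0.58 and slopes of −0.001 and −0.17.

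Other marker lists moved with single members. The smooth muscle score rose with Ctsa, Ctsl, Ctsh and Ctsc (r 0.88, 0.87, 0.86 and 0.80, adjusted permutation p 0.0073 to 0.0473), and the endothelial score ran opposite to Ctsc, Ctsl and Ctss (r −0.85, −0.82 and −0.81, adjusted permutation p 0.0073 to 0.0143). Their rho was 0.60 to 0.83 and −0.78 to −0.66, of which only Ctsl with smooth muscle passed adjustment (permutation p = 0.0423). After dropping the 2 most extreme mice of each score, r was 0.56 to 0.83 and −0.67 to −0.55. On values centred on the group means, Ctsc with smooth muscle and Ctss with endothelial no longer passed (adjusted permutation p = 0.0982 and 0.106), and the other 5 did. Ctsk also rose with the fibroblast score (r 0.76, adjusted permutation p = 0.0417, rho 0.76, adjusted permutation p = 0.0755), and on centred values both Ctsk and Ctss did (r 0.91 and 0.88, adjusted permutation p = 0.0172 for each). The neutrophil score, from 6 genes, had a higher mean in AZ6983 mice, at 3.08 ± 0.858 against 1.38 ± 0.662 (SD, n = 6 each). The difference did not pass 0.05 after adjustment over 14 lists (exact permutation test, two-sided, p = 0.00649, adjusted p = 0.0909). Camp, 1 gene of this score, had been listed as higher by the study on these same mice, so the difference is not independent evidence. The neutrophil score ran opposite to Ctsd and Ctsb (r −0.80 and −0.77, adjusted permutation p = 0.0156 and 0.033), with rho of −0.90 and −0.85 (adjusted permutation p = 0.0126 and 0.036) and r of −0.68 and −0.59 without A6 and C6. Within controls r was −0.62 and −0.74, and within AZ6983 mice −0.73 and −0.67. After centring on the group means neither passed (r −0.67 and −0.69, adjusted permutation p = 0.139 and 0.125). Its part in their difference between groups was not tested.

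Brown fat markers varied as well. The summed level of 8 brown fat markers was 2890 to 4734 CPM in controls and 2531 to 6145 CPM in AZ6983 mice, and the score did not differ beyond the spread (exact permutation test, two-sided, p = 0.234). No member passed with this score over the 12 mice, where r ran from −0.67 for Ctsl to 0.59 for Ctsz (permutation test, adjusted p = 0.102 and 0.151). On values centred on the group means Ctsc and Ctsl ran opposite to it (r −0.89 and −0.86, adjusted permutation p = 0.0274 for each), with r of −0.25 and −0.50 on uncentred values without A5 and A4, and Ctsh and Ctsa were at −0.76 and −0.75 (adjusted permutation p = 0.125 and 0.11). With the brown fat score in the edgeR model, Ctsc was the 1 cathepsin past 10% FDR (log2 fold change −0.24, adjusted p = 0.099), among 102 of the 15857 genes tested. The same model moved Ctss to −0.94, Ctsk to −0.40, Ctsl to −0.34, Ctsh to −0.25 and Ctsa to −0.17, each by over 1.5 times, while Ctsz was at −0.39.

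The genes whose pattern was most like that of a member were found by r on centred values over 12 mice, among all genes tested. For Ctsz they included Alpl (0.93), Isoc2b (0.91), Zswim7 (0.89), Bmp8b (0.87) and Lamp1 (0.87). Lamp1 is a membrane protein of the lysosome. Bmp8b, a factor made in brown fat, had only 2 to 43 counts per mouse. For Ctsf the nearest was Tmem59 (0.91). Ctss was nearest to Lgals3 (0.99), Ctsk to Cd68 (0.96), Ctsl to Cyba (0.95), Ctsc to Wif1 (0.98) and Ctsa to Rpn2 (0.97). Lgals3 and Cd68 are themselves in the macrophage list. Each r here was picked from the highest over 15857 genes in only 12 mice. How high such picked values run by chance was not tested.

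Of 13 other cathepsin genes sought, 4 had a row. The 3 that were tested had log2 fold changes above 0 (median 0.51, highest 1.02 for Ctse). Of these 3, 1 was higher at an unadjusted p below 0.05 in edgeR, where 7.38% of all genes were higher. Ctso, a cysteine protease, had 45.3 to 50.5 CPM in controls and 40.9 to 56.0 CPM in AZ6983 mice (log2 fold change 0.03, edgeR adjusted p = 0.918). Ctse, an aspartic protease of immune and gastric cells, had 11 to 23 counts in controls and 9 to 113 in AZ6983 mice, and Ctsw, a protease of cytotoxic lymphocytes, had 4 to 18 and 4 to 50. The highest count of both was in A4, the mouse whose T cell and thymocyte score was 6.36, against −0.50 to 1.90 in the other AZ6983 mice. Ctsg, a neutrophil granule protease, had 0 to 5 counts in controls and 0 to 11 in AZ6983 mice, too few for the filter.

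Around the cathepsins, the other genes of the pathway were counted by role. None passed 10% FDR in edgeR in any list. Of 10 inhibitors tested, 9 had a log2 fold change below 0 (median −0.18), from −0.39 for Serpina3n, a secreted serpin, to 0.11 for Serpinb1a, an inhibitor of neutrophil proteases. Cst3, cystatin C, the main secreted inhibitor of cysteine cathepsins, had 643 to 862 CPM in controls and 547 to 824 CPM in AZ6983 mice (log2 fold change −0.19, edgeR adjusted p = 0.557).

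Among 14 genes of sorting and processing the median was 0.02, from −0.23 for Scarb2, the receptor that carries glucocerebrosidase, to 0.23 for Gga3, a sorting adaptor. M6pr, a mannose 6-phosphate receptor, Psap, the saposin precursor, and Scarb2 were the 3 lower at an unadjusted p below 0.05, where the share over all genes was 2.81%. Galns, Neu1 and Glb1, the partners of cathepsin A, were at −0.09, −0.03 and −0.03. The 24 other lysosomal hydrolases had a median of −0.06, from −0.34 for Gla (α-galactosidase) to 0.11 for Sgsh (sulfamidase). The 13 membrane proteins had a median of −0.07, from −0.22 for Laptm4b to 0.12 for Laptm5, both lysosomal membrane proteins.

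The V-ATPase, the pump that acidifies the lysosome, had 16 of its 17 subunit genes below 0, with a median of −0.15, against 47.6% of all genes below 0. At an unadjusted p below 0.05, 5 were lower: Atp6v1a, Atp6v1c1, Atp6v1e1, Atp6v1h and Atp6v0b, with log2 fold changes of −0.22, −0.24, −0.19, −0.12 and −0.21. The share of all genes lower at that level was 2.81%. Atp6v0d2, a subunit of osteoclasts and macrophages, was lowest in fold, with 10.6 to 32.2 CPM in controls and 2.21 to 28.8 CPM in AZ6983 mice (log2 fold change −0.999 ± 0.516 SE, edgeR adjusted p = 0.521), and Atp6v0a1 was highest at 0.09. Ctsz, Atp6v1a, Atp6v1c1 and Laptm4b had also been picked by the study on these same mice, so their direction is not independent evidence.

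Of the factors that bind CACGTG, Mitf, Tfeb, Tfec and Tfe3 had log2 fold changes of −0.22, −0.06, 0.02 and 0.03 (adjusted p 0.45 to 0.983 in edgeR). Of these 4, 1 was lower at an unadjusted p below 0.05 in edgeR, where 2.81% of all genes were lower. Among 12 substrates the median was 0.19 and 3 were below 0. The highest was Col1a1, a chain of fibrillar collagen (507 ± 118 CPM in controls and 704 ± 260 in AZ6983 mice, SD, n = 6 each, log2 fold change 0.47, edgeR adjusted p = 0.508), and the lowest was Dcn, the collagen-binding proteoglycan decorin, at −0.17. Eln (elastin) and Fbn1 (fibrillin) were higher at an unadjusted p below 0.05, each with a log2 fold change of 0.32, where 7.38% of all genes were higher at that level. Cd74, the invariant chain that cathepsin S cuts, was at 157 ± 42.9 CPM and 153 ± 43.6 CPM (SD, n = 6 each, log2 fold change −0.04, edgeR adjusted p = 0.955).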

How the data were processed

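Total RNA of the thoracic aorta was sequenced as stranded, ribosome-depleted libraries. The authors deposited raw read counts per gene symbol, without normalization, and the submitters' processing notes name CASAVA 1.8.2, STAR 2.5.2b, HTSeq 0.6.1p1 and the build mm10, with no settings. The annotation and the strand setting of the counting are not given in the sources used here. The table's 3 rows that name no gene (no gene, more than 1 place or more than 1 gene) entered neither library sizes nor tests, and held 8.02% to 14.9%, 18.1% to 23.2% and 0.606% to 0.698% of the reads per mouse.

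Groups came from the sample labels. The column of A1 holds 3 of the 4 digits of its mouse number, and the other 11 columns match in full. The labels do not say that mice were paired, and the tests took the mouse as the unit.

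Tests on counts used edgeR 4.0.16 under R 4.3.3 (filterByExpr, TMM, quasi-likelihood test, Benjamini-Hochberg over 15857 genes, 10% FDR). The standard error is the size of the log2 fold change over the root of F. Alternatives were DESeq2 1.42.0, limma 3.58.1, sva 3.50.0, other scalings and filters, covariates, and each mouse left out. Fits with marker scores as covariates, DESeq2 with mice left out, marker scores and the unassigned share with mice left out, slope differences and coefficients of variation were added after seeing the data. Setting Ctsz and Ctsf apart from the other members in the pairs also came after seeing the data. Scores are means of log2 CPM with a prior count of 2. Slopes were tested by permuting the score within groups. Lengths and positions are from GENCODE M21 (GRCm38), promoters from RefSeq GRCm38.p6. The edgeR, DESeq2 and limma steps were tested on simulated data.

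The members and all gene lists were chosen with earlier results of these data known. Named genes are the 10 cathepsins, other cathepsins with a row, the extremes of each pathway list and the nearest neighbours by centred r, of which 2 are not reported here. Cst3, Cd74, the remaining partners of cathepsin A and MiT/TFE factors, and genes named for an unadjusted p were chosen after their values were seen.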

Additional observations from a re-analysis of the deposited data

Results flagged for a closer look

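No cathepsin had a mouse set apart from the rest of its group by Dixon's test, which looked at each gene, marker score and the unassigned share of reads in each group of 6. Of 50 groups looked at, 6 had such a mouse, where chance gives about 1 in 20, or 2.5. The osteoclast score was 3.78 in A6 against 4.04 to 4.12 in the other AZ6983 mice. The T cell and thymocyte score was 6.36 in A4 against −0.50 to 1.90. The cartilage score was 2.65 in A2 against 1.74 to 1.997. Among controls, the endothelial score was 6.00 in C6 against 6.19 to 6.28, the brown fat score 7.26 in C6 against 7.85 to 8.05, and the white fat score 7.89 in C2 against 7.26 to 7.48. Their part in the cathepsin levels was not tested.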

How the results depend on the processing

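No paired analysis was possible because the numbers in the labels are the mice's own and none recurs between groups. At 10% FDR DESeq2 called 92 genes (84 on the genes edgeR tested) and 1 cathepsin, Ctsz. Ctsz is the gene the set was chosen by, so calls of it repeat the selecting values. With 1 mouse left out, DESeq2 called Ctsz in 4 of 12 fits (DESeq2 adjusted p 0.000902 to 0.35 over the 12). Library totals without TMM gave 2 genes, voom with quality weights 4 and the brown fat score as covariate 102 and 1 cathepsin. With each mouse left out, edgeR and DESeq2 together called 0 to 388 genes and 0 to 1 cathepsins. In edgeR it was 27 genes without A5, 1 without A1 and 1 without C6, and in DESeq2 20 to 388. Of the other 9 cathepsins, DESeq2 called Ctss without A2 (log2 fold change −0.93, adjusted p = 0.0562), in a fit that called 119 genes. A2 was the AZ6983 mouse with the highest Ctss (217 CPM).

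The sign turned for Ctsh without A4 and A5 (0.040), with the macrophage score (0.038), with the unassigned share (0.013) and among fits without 1 mouse (−0.16 to 0.0041). It turned for Ctsl (0.013) and Ctsa (0.0027) with the macrophage score, and for Ctsf (0.16) with the unassigned share. Without 1 mouse, the slope difference ranged from −0.25 to 0.0037 for Ctsb and from −0.12 to 0.22 for Ctsh, the osteoclast score difference from −0.068 to 0.0040 and the cardiac muscle score difference from −0.32 to 0.62. On centred values 4 cathepsins, not 7, followed the macrophage score, and by coding length 1 of 10 kept its place in the order. The cause of these changes was not tested, except that covariates and fewer mice change the model itself.

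With a prior count of 0.5, 8 cathepsins had r over 0.5 with the macrophage score, the same number as with 2. The filters, RLE or upper quartile scaling and 5% FDR changed no cathepsin's call in edgeR. The median log2 fold change of all genes lay between −0.016 and 0.018 under the settings with all mice or without A4 and A5. Every member had at least 442 counts in each mouse, while Ctse, Ctsw and Ctsg had few.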
